A study of Mus musculus with 14 samples.

Results

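The genes described are 10 parts of the circadian clock and its output, namely the period genes Per1, Per2 and Per3, the cryptochromes Cry1 and Cry2, the activators Arntl (which encodes BMAL1) and Clock, the REV-ERB genes Nr1d1 and Nr1d2, and the output factor Dbp. They were chosen by symbol, with earlier results of these data known. All 10 were found among 23420 symbols of the deposited count table and passed the filter on low counts, which kept 14217 genes. The samples were 14 libraries of 150 dendritic cells (DCs) each, sorted from popliteal lymph nodes of C57BL/6 mice by high MHC-II, by CD11c and CD11b and by the absence of XCR1, and read by Smart-seq2, a method that covers whole polyadenylated transcripts. Biotin-positive DCs (6 libraries) and biotin-negative DCs (6 libraries) came from Cd40G5/G5 mice (genotype label G5-Cd40+/+), whose CD40 carries a tag that sortase A on CD40 ligand of a touching T cell can label with biotin (the LIPSTIC method). Those mice had received Cd40G5/G5 DCs pulsed with the OVA323-339 peptide and, 18 hours later, CD40lgSrtA/Y CD4-Cre OT-II T cells. The Cd40-null group (2 libraries) came from Cd40-/- mice given WT DCs and WT OT-II T cells, and this group thus differs from the others in genotype and in the cells transferred, which cannot be told apart. In all groups endogenous DCs were sorted, the biotin substrate was given 46 hours after T cell transfer, and nodes were taken at 48 hours. The labels say neither whether libraries came from separate mice nor at what time of day any node was taken, so each p-value here covers variation among libraries, which may be technical, and the part of sampling time in any difference was not tested.

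In the mammalian clock, BMAL1 and CLOCK bind E-box sequences together and switch on the period, cryptochrome, REV-ERB and Dbp genes. PER and CRY proteins then repress the same pair of activators, while REV-ERB proteins repress Arntl and other genes, and DBP activates genes through D-box sequences. Per1 is also known as a gene that glucocorticoids and cAMP signalling induce quickly, apart from the cycle. In immune tissue the clock is known for daily rhythms of leukocyte traffic through lymph nodes.

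Total counts ran from 1.45e+07 to 3.33e+07 per library. Cd40, the gene targeted in the null mice, averaged 1062 ± 163 CPM in biotin-positive, 511 ± 78.7 CPM in biotin-negative and 63.7 ± 14.7 CPM in Cd40-null libraries (SD, n = 6, 6 and 2; CPM are counts relative to the library total, scaled with TMM factors throughout). Cd40 reads thus remained in the null libraries, at 1843 and 1033 counts, and the labels do not say which exons the allele lacks. Of the 10 DC markers none was at 0 throughout a group; Flt3 was at 741 CPM or more and Zbtb46 at 121 CPM or more in every library. Genes with a count numbered 13090 to 13455 in biotin-positive, 14225 to 15742 in biotin-negative and 13113 to 13596 in Cd40-null libraries.

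Per1 and Per3 were the members past the threshold of an adjusted p of 0.05 in edgeR's quasi-likelihood test, each in different comparisons. Upstream stretches of both genes are shown for their clock motifs, from RefSeq on GRCm38.p6, from 250 to 101 bases before a RefSeq start of the gene and read 5′ to 3′ on the gene's strand. Capitals mark the E-box (CACGTG) in Per1 and both D-boxes (TTANNTAA) in Per3.
Per1, chr11:69098699-69098848, + strand: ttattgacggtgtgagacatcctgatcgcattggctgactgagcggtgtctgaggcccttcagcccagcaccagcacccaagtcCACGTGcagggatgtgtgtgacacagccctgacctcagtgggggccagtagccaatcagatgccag
Per3, chr4:151044766-151044915, - strand: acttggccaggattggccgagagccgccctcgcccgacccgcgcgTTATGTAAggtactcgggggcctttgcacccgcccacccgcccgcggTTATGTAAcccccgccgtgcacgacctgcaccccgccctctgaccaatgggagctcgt
The E-box began 166 bases before the more upstream of 2 RefSeq starts used for Per1 (69098949 and 69100152), and the D-boxes 205 and 158 bases before the Per3 start. The Per1 stretch lies within the longer interval that GENCODE gives the gene, and it holds no annotated exon. Windows from 250 bases before to 50 after the start were found for 9 of the 10 members; Per2 had none. On both strands, CACGTG was in windows of Per1 and Cry1 and in 7.149% of 32817 promoter windows, and TTANNTAA in that of Per3 and in 5.997%. Of the other motifs searched, TAGGTCA, a ROR and REV-ERB element, was in 1 window of Arntl and in 2.608% of all windows. The other form of that element, AAGGTCA (4.723% of all windows), the cAMP response element TGACGTCA (1.792%) and the glucocorticoid receptor element core AGAACA (18.972%) were in none of the members' windows. No match overlapped another. These matches describe letters only and not factor binding.

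**Figure D1:**
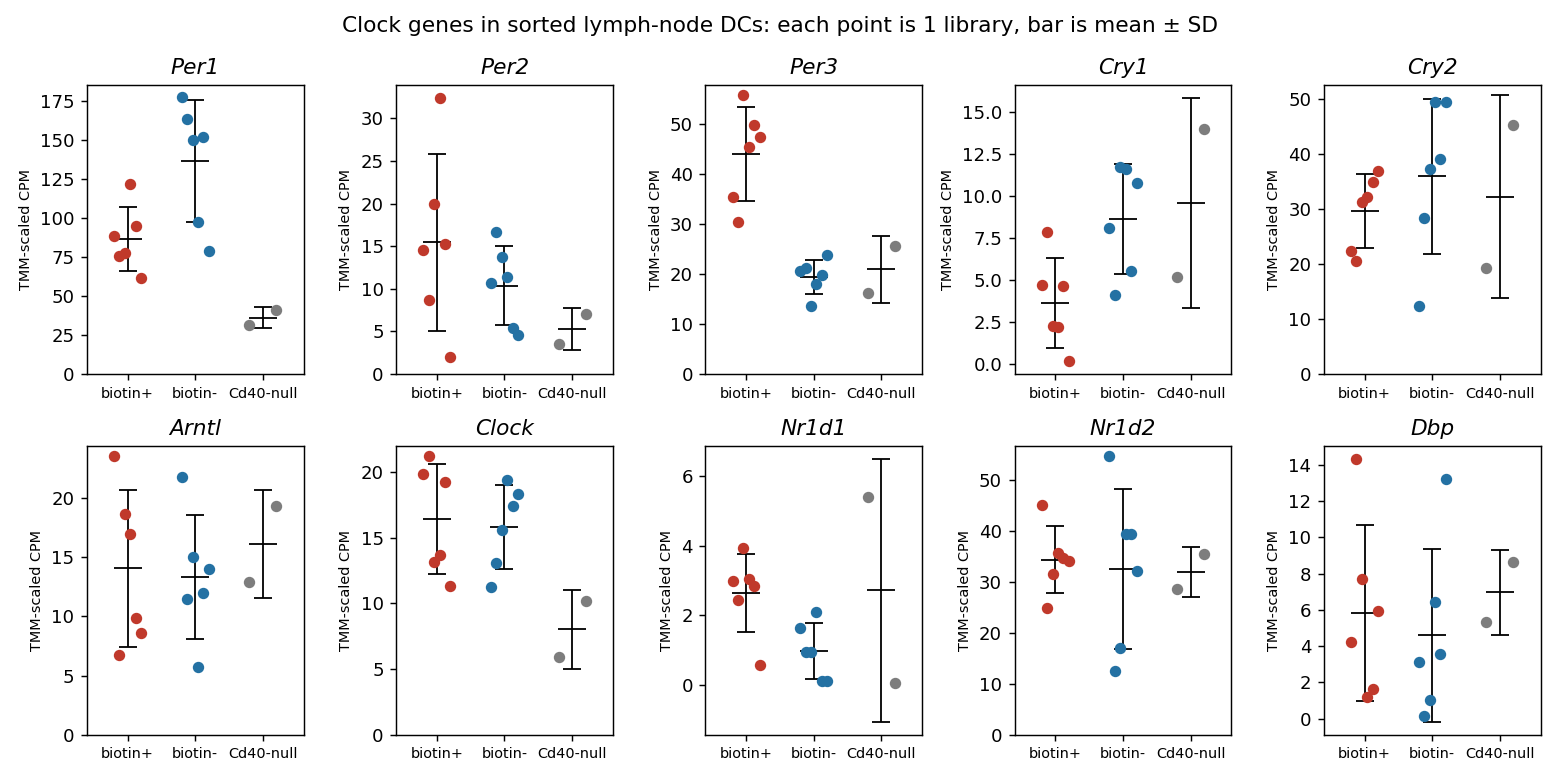
TMM-scaled CPM of the 10 clock genes (vertical axes, each from its own scale) in biotin-positive (red), biotin-negative (blue) and Cd40-null (grey) libraries; points are single libraries and black bars the mean ± SD. Per3 stands apart in the biotin-positive group, at 30.4 to 55.7 CPM against 13.7 to 23.8 CPM in the biotin-negative group, and Per1 is lowest in both Cd40-null libraries.

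Per3, a period gene that in mice is not needed for the rhythm itself and often serves as a marker of its phase, was higher in labelled than in unlabelled DCs. Per3 (chromosome 4, 151003652 to 151044665, GRCm38) had a lowest, median and highest level of 30.4, 46.4 and 55.7 CPM in biotin-positive libraries. The same values were 13.7, 20.2 and 23.8 CPM in biotin-negative libraries, and the Cd40-null libraries stood at 16.3 and 25.6 CPM. Every biotin-positive library was above every other library of the series. Of all genes tested, 5.02% did not overlap between the biotin groups and 7.75% were called. Between biotin-positive and null libraries 15.9% did not overlap. Per3 rose 2.26-fold in biotin-positive over biotin-negative libraries (a log2 change of 1.18, SE 0.20, adjusted p = 0.00122 with edgeR; 44.0 ± 9.43 against 19.5 ± 3.43 CPM, SD, n = 6 each). Its call held with each replicate left out in turn (adjusted p from 0.00102 to 0.00429).

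The rise of Per3 in biotin-positive over Cd40-null libraries was of similar size but did not pass the threshold over all genes (log2 1.07, SE 0.30, adjusted p = 0.0699 with edgeR; 44.0 ± 9.43 and 20.9 ± 6.61 CPM, n = 6 and 2). DESeq2 (adjusted p = 0.00860), limma voom (0.0464) and limma on the normalized signal (0.0387) called it. Between biotin-negative and Cd40-null libraries the log2 difference of Per3 was -0.10, with a 95% interval from -0.69 to 0.48.

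Some marker genes of other cells, and some of DCs themselves, also differed between the biotin groups. The summed level of the Langerhans markers Cd207 and Epcam was 212 to 293 CPM in biotin-positive, 30.6 to 103 CPM in biotin-negative and 90.4 to 101 CPM in Cd40-null libraries, with neither gene at 0 in any group. The sum of 19 monocyte and macrophage markers was 149 to 324 CPM in biotin-positive, 292 to 1550 CPM in biotin-negative and 419 to 720 CPM in Cd40-null libraries, and 11 of the 19 fell in biotin-positive against biotin-negative libraries. Cd163 among them averaged 0.627 ± 0.713 CPM in biotin-positive against 24.4 ± 12.1 CPM in biotin-negative libraries. In these bulk samples, more cells of a type and more RNA per cell cannot be told apart. With a covariate for detected genes in the fit, Per3 was at log2 1.32 (adjusted p = 0.306), and with the monocyte and macrophage marker level at 1.38 (adjusted p = 0.187), and it was called in neither fit. These fits called 11 and 87 of all genes, against 1102 without a covariate. Detected genes did not overlap between the biotin groups, so the first fit can hardly separate that covariate from the groups. The monocyte and macrophage markers went with the groups too, as 11 of 19 fell, so the second fit may separate them poorly as well. A marker level in a fit was the list's mean log2 CPM, which weighs each tested gene alike, unlike the sum. NK cell markers summed to 3.29 to 10.9 CPM in biotin-positive, 32.4 to 47.3 CPM in biotin-negative and 24.5 to 35.3 CPM in Cd40-null libraries. Klrd1 alone carried that sum, with means of 5.89, 36.9 and 29.7 CPM in these groups. Ncr1, Klrb1c, Prf1, Gzma and Eomes averaged 0.345 CPM or less in each group, and 4 of the 6 NK cell markers were at 0 in both null libraries. Of 10 DC markers 1 rose and 4 fell in biotin-positive against biotin-negative libraries. Fscn1, an actin-bundling protein gene of mature DCs, averaged 7172 ± 932 CPM in biotin-positive libraries, against 3185 ± 376 CPM in biotin-negative and 3631 ± 791 CPM in null ones. H2-Ab1, an MHC class II gene, averaged 230 ± 113 CPM in biotin-positive libraries, against 1245 ± 397 CPM in biotin-negative and 498 ± 160 CPM in null ones. The part of the Langerhans, NK cell and DC markers in the result was not tested.

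Per1, the period gene with the highest level here, had its lowest values in the Cd40-null libraries. Per1 (chromosome 11, 69095217 to 69109960) stood at a lowest, median and highest level of 61.4, 82.9 and 122 CPM in biotin-positive libraries. In biotin-negative libraries these were 78.6, 151 and 178 CPM, and in the Cd40-null libraries 31.4 and 41.0 CPM. Both null libraries were below all 12 biotin-sorted libraries, while the biotin-sorted groups overlapped. Groups did not overlap for 15.9% of all genes tested between biotin-positive and null libraries, and for 10.7% between biotin-negative and null ones.

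Per1 rose 3.77-fold in biotin-negative over Cd40-null libraries (log2 1.92, SE 0.32, adjusted p = 0.0102 with edgeR; 137 ± 39.3 against 36.2 ± 6.83 CPM, SD, n = 6 and 2). It also rose in biotin-positive over Cd40-null libraries, 2.39-fold (log2 1.26, SE 0.31, adjusted p = 0.0398; 86.6 ± 20.7 against 36.2 ± 6.83 CPM). Both comparisons use the same 2 null libraries. Without null replicate 1 the adjusted p was 0.209 for biotin-negative and 0.411 for biotin-positive libraries, and without null replicate 2 it was 0.116 and 0.156. The call between biotin-positive and null libraries was also lost with limma voom (adjusted p = 0.0631) and without any one of biotin-positive replicates 1 to 5 (0.0532 to 0.0591), with log2 values from 1.08 to 1.46 over the replicates left out.

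Between the biotin groups Per1 was 1.58-fold lower in biotin-positive libraries and just missed the threshold (log2 -0.66, SE 0.20, adjusted p = 0.0545 with edgeR; 86.6 ± 20.7 and 137 ± 39.3 CPM). DESeq2 called it, at an adjusted p of 0.0145, as did 4 of the other 13 alternatives, and the log2 value ran from -1.53 to -0.38 over all 14.

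The T cell marker list had its highest sums in the group where Per1 was highest. Its 15 genes summed to 280 to 402 CPM in biotin-positive, 398 to 647 CPM in biotin-negative and 153 to 342 CPM in Cd40-null libraries. Il7r, which encodes the interleukin-7 receptor, made up most of that sum in the biotin-sorted groups, and 1 of the 15 genes was called in each comparison. Without Il7r the sums were 30.3 to 73.4 CPM in biotin-positive, 23.4 to 104 CPM in biotin-negative and 38.8 to 174 CPM in Cd40-null libraries. Cd3e, a defining gene of T cells, averaged 1.47 ± 1.61 CPM in biotin-positive, 0.575 ± 0.591 CPM in biotin-negative and 2.51 ± 1.57 CPM in Cd40-null libraries. The T cell covariate was the mean log2 CPM of these genes, in which Il7r weighs no more than any other, so it need not follow the sums. With it in the fit, Per1 was at log2 1.44 in biotin-negative (adjusted p = 0.247) and 1.07 in biotin-positive libraries over null ones (adjusted p = 0.0852). With the monocyte and macrophage marker level, again a mean log2 CPM and not the sums given above, Per1 was at 2.34 in biotin-negative (adjusted p = 0.00281) and 0.81 in biotin-positive libraries (adjusted p = 0.271). With the number of detected genes it was at 2.20 (adjusted p = 0.331) and 1.25 (adjusted p = 0.0488). Detected genes did not overlap between biotin-negative and null libraries either, so there too the fit can hardly separate covariate and group. For biotin-negative over null that fit called 6 of all genes, against 45 without the covariate.

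**Figure D2:**
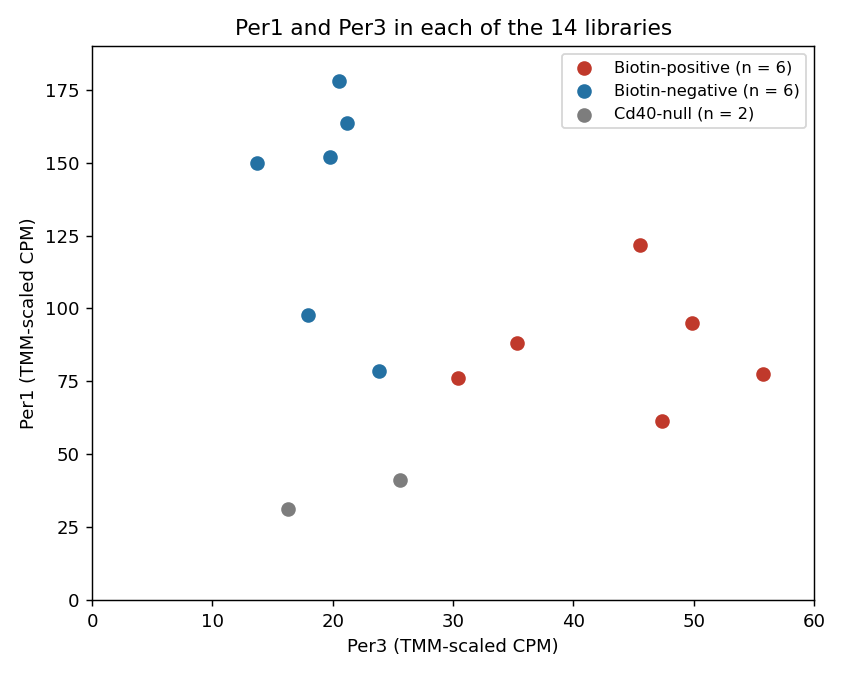
Per3 (horizontal axis) against Per1 (vertical axis), both in TMM-scaled CPM, in each of the 14 libraries, with biotin-positive libraries in red, biotin-negative in blue and Cd40-null in grey. Biotin-negative libraries lie to the left with Per3 at or below 23.8 CPM, biotin-positive libraries to the right from 30.4 CPM, and both null libraries at or below 41.0 CPM of Per1.

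The ratio of Per1 to Per3 counts, which no scaling of libraries can change, was looked at after their values were seen and is given without a test. It was 1.30 to 2.67 in biotin-positive libraries, 3.30 to 11.0 in biotin-negative libraries, and 1.93 and 1.60 in the Cd40-null libraries. The biotin-sorted groups did not overlap, and both null libraries lay within the range of the biotin-positive ones.

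Per2, the third period gene and a main repressor of the clock (chromosome 1, 91415982 to 91459324), varied widely within groups. Its lowest, median and highest levels were 1.96, 14.9 and 32.4 CPM in biotin-positive libraries against 4.58, 11.0 and 16.6 CPM in biotin-negative libraries, with 3.54 and 7.02 CPM in the null libraries. All 3 groups overlapped, and no comparison of Per2 was called (adjusted p from 0.393 to 0.713). The 95% interval of its log2 difference ran from -0.47 to 1.61 for biotin-positive against biotin-negative, from -0.07 to 3.17 for biotin-positive against null, and from -0.58 to 2.54 for biotin-negative against null libraries.

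The activators and cryptochromes gave no calls. Clock (chromosome 5, 76209868 to 76304792), the DNA-binding partner of BMAL1, stood at 11.3, 16.5 and 21.2 CPM (lowest, median, highest) in biotin-positive, with 11.2, 16.5 and 19.4 CPM in biotin-negative libraries, against 5.91 and 10.2 CPM in the null libraries. Both null libraries were below every biotin-sorted library, where 15.9% of all genes did not overlap between biotin-positive and null and 10.7% between biotin-negative and null libraries. The log2 difference from null was 1.03 in biotin-positive (SE 0.37, adjusted p = 0.191) and 0.98 in biotin-negative ones (SE 0.37, adjusted p = 0.431), and 0 of 14 alternatives called either. The biotin groups differed by log2 0.05, with an interval from -0.46 to 0.57. Arntl (chromosome 7, 113207465 to 113314126) was at 6.74, 13.4 and 23.5 CPM in biotin-positive libraries, against 5.75, 13.0 and 21.8 CPM in biotin-negative ones, with 12.9 and 19.4 CPM in the null libraries. Its groups overlapped throughout, with log2 differences from -0.27 to 0.07.

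Cry1 (chromosome 10, 85131700 to 85185064), a strong repressor of the activator pair, stood at 0.206, 3.49 and 7.84 CPM in biotin-positive, with 4.13, 9.42 and 11.7 CPM in biotin-negative libraries, with 5.19 and 13.99 CPM in the null ones. The lowest value was 4 counts, in biotin-positive replicate 6. Cry1 did not pass the threshold between the biotin groups (log2 -1.24, SE 0.59, adjusted p = 0.238), and its groups overlapped. Cry2 (chromosome 2, 92403646 to 92434043) was at 20.5, 31.7 and 36.8 CPM in biotin-positive libraries, against 12.3, 38.2 and 49.4 CPM in biotin-negative ones, with 19.2 and 45.2 CPM in the null libraries. Both null libraries lay within the range of the biotin-negative ones for Cry2, and its log2 differences were between -0.28 and 0.16.

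The REV-ERB genes encode nuclear receptors that repress transcription in response to haem. Nr1d2 (chromosome 14, 18204054 to 18239127) was one of the more abundant members, with means of 34.4 ± 6.59 CPM in biotin-positive, 32.6 ± 15.6 CPM in biotin-negative and 32.0 ± 4.88 CPM in null libraries. Its log2 difference between the biotin groups was 0.08, with an interval from -0.53 to 0.69. Nr1d1 (chromosome 11, 98767932 to 98775333) was scarce, at 0.567, 2.92 and 3.94 CPM in biotin-positive, with 0.102, 0.945 and 2.09 CPM in biotin-negative libraries. The null libraries held 5.39 and 0.0516 CPM of Nr1d1, which are 134 counts and 1 count. The highest and the lowest Nr1d1 level of the series thus both came from null libraries. Nr1d1 was higher in biotin-positive libraries by log2 1.43 without passing the test (SE 0.96, adjusted p = 0.452, interval from -0.59 to 3.46).

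Dbp (chromosome 7, 45705088 to 45710203), a direct output of the activator pair that swings strongly over the day in many tissues, stood at 1.21, 5.09 and 14.3 CPM in biotin-positive libraries, against 0.159, 3.36 and 13.2 CPM in biotin-negative ones, with 5.31 and 8.62 CPM in the null libraries. Dbp ranged within each biotin group over most of its range in the series, and no comparison of Dbp was called (adjusted p from 0.875 to 0.967). In libraries without strand, reads from overlapping genes on opposite strands cannot be told apart, and the labels do not say that strand was kept. Dbp shares 539 of its 2993 exonic bases with Sphk2 and Nr1d1 263 of 3077 with Thra, both on the other strand, so the levels of Dbp and Nr1d1 are less certain; Cry2 shares 295 of 6320 bases with a noncoding transcript and Arntl 33 of 7523 with an antisense one.

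**Figure D3:**
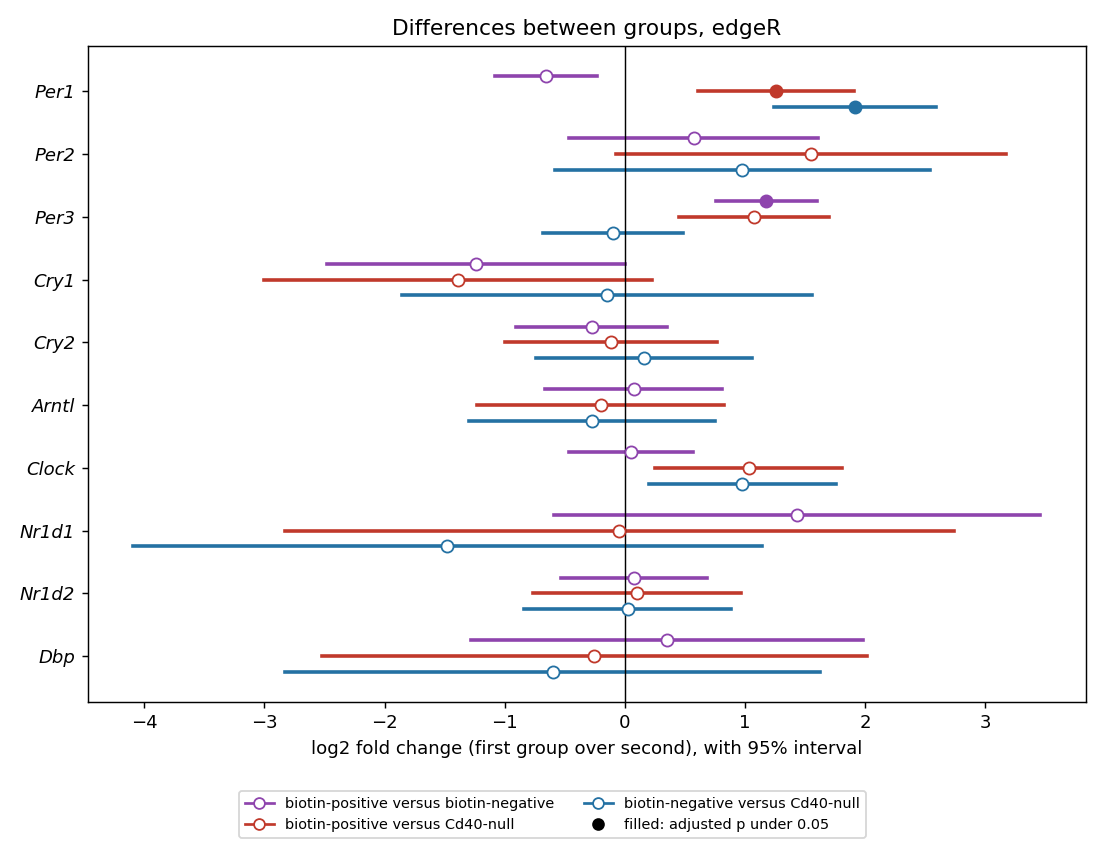
Log2 fold change of each clock gene (horizontal axis) in 3 comparisons, first group over second, as edgeR estimates with 95% intervals; filled points passed an adjusted p of 0.05. The filled points are Per3 at 1.18 between the biotin groups and Per1 at 1.26 and 1.92 over Cd40-null libraries, and the intervals are widest for Nr1d1 and Dbp.

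As a set, the clock genes were called about as often as genes at large between the biotin groups. Of 10 members 1 was called, Per3, beside 7.75% of all 14217 genes tested (3.7% higher and 4.05% lower), and the groups did not overlap for 1 of 10 (5.02% of all genes). Between biotin-positive and null libraries 1 of 10 was called, Per1, beside 2.27% of all genes (1.22% higher and 1.05% lower), and the groups did not overlap for 3, Per1, Per3 and Clock (15.9% of all genes). Between biotin-negative and null libraries 1 of 10 was called, again Per1, beside 0.317% of all genes (0.274% higher and 0.0422% lower), and the groups did not overlap for 2, Per1 and Clock (10.7% of all genes). The median log2 change of the members was 0.08, 0.03 and -0.04 in these 3 comparisons, and that of all genes -0.03, 0.04 and 0.06. A share resting on 1 gene of 10 does not set the clock genes apart as a group.

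Per kilobase of annotated exon, a rough scale for comparing genes, Per1 was the most abundant member in every group, at 15.4 ± 3.67 CPM per kb in biotin-positive, 24.3 ± 6.98 in biotin-negative and 6.43 ± 1.21 in null libraries (SD, n = 6, 6 and 2). The length pools the exons of all annotated transcripts of a gene, expressed or not, and was 13727 bases for Clock, so the order depends in part on the annotation. Nr1d2 had the next highest mean on that scale, at 6.35 ± 1.22, 6.02 ± 2.89 and 5.92 ± 0.902 CPM per kb, and overlapped Cry2 in all 3 groups. The lowest biotin-positive library for Per1, at 10.9 CPM per kb, was above the highest for Nr1d2, at 8.35, and the same held in biotin-negative libraries (13.96 and 10.1), whereas the 2 genes overlapped in the null libraries. In biotin-positive libraries Cry2 (4.69 ± 1.06 CPM per kb) and Per3 (4.58 ± 0.981) came next and did not differ beyond their spread. Then came Per2 (2.64 ± 1.77), Dbp (1.95 ± 1.62), Arntl (1.87 ± 0.883), Clock (1.196 ± 0.303), Cry1 (1.09 ± 0.798) and Nr1d1 (0.859 ± 0.367), each overlapping its neighbours. In biotin-negative libraries Cry2 (5.69 ± 2.22) was followed by Cry1 (2.59 ± 0.977) and Per3 (2.03 ± 0.357), which overlapped. In null libraries Clock had the lowest mean of the members on this scale, at 0.586 ± 0.219 CPM per kb.

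**Figure D4:**
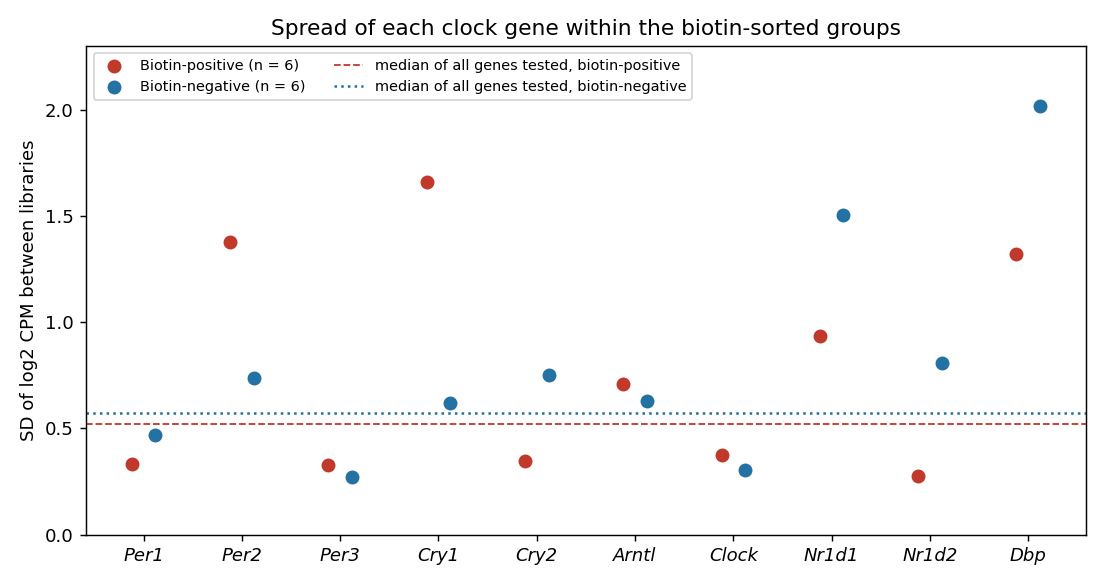
Standard deviation of log2 CPM between the 6 libraries of each biotin group (vertical axis) for each clock gene; lines give the median over all genes tested. Per1, Per3 and Clock lie below both lines, while Per2, Cry1, Arntl, Nr1d1 and Dbp lie above both medians, each in its own group.

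The members differed in how evenly the libraries of a group carried them. The SD of log2 CPM was 0.33 in biotin-positive against 0.27 in biotin-negative libraries for Per3, and 0.37 and 0.31 for Clock, below the medians of all genes tested, 0.52 and 0.57. Per1 was also below both medians, at 0.33 and 0.47. Dbp was at 1.32 and 2.02, and Nr1d1 at 0.94 and 1.50, both among the members with the fewest counts (4 to 234 for Dbp and 1 to 134 for Nr1d1). Per2 (1.38 in biotin-positive against 0.74 in biotin-negative libraries), Cry1 (1.66 and 0.62) and Arntl (0.71 and 0.63) were above both medians too. Nr1d2 and Cry2 were below the median in biotin-positive libraries, at 0.28 and 0.35, and above it in biotin-negative ones, at 0.81 and 0.75. These differences in spread between groups were not tested.

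Pairs of members that share a known link in the clock, and Per1 with Tsc22d3, which is not a member, showed no correlation past the threshold within a biotin group. Over 5 pairs in 2 groups of 6 libraries, 10 tests in all, 0 had an exact two-sided permutation p under 0.05 for Pearson's r, and every p adjusted over the 10 was 0.919. Arntl and Nr1d1, an activator and the repressor of its gene, had r = 0.53 in biotin-positive libraries (rho = 0.77, exact permutation p = 0.261 and 0.103, n = 6) and r = -0.18 in biotin-negative libraries (rho = -0.20, exact permutation p = 0.722 and 0.714, n = 6). Without the 2 libraries farthest from the median of Arntl, r was 0.77 in the biotin-positive group and 0.08 in the biotin-negative one (n = 4, adjusted permutation p = 0.417 and 0.875). Per1 and the glucocorticoid-induced gene Tsc22d3 had r = 0.29 in biotin-positive (rho = 0.37, exact permutation p = 0.571 and 0.497, n = 6) and r = 0.46 in biotin-negative libraries (rho = 0.37, exact permutation p = 0.354 and 0.497, n = 6). Without the 2 libraries farthest from the median of Per1 these r were -0.18 and 0.96 (n = 4, adjusted permutation p = 0.875 and 0.417). With 4 libraries an exact permutation p cannot fall below 0.0417, and the 1 at that floor adjusted to 0.417. A single strong r at n = 4 thus could not pass the threshold. Tsc22d3 itself averaged 688 ± 76.9 CPM in biotin-positive, 505 ± 73.2 CPM in biotin-negative and 109 ± 20.6 CPM in null libraries, so that it and Per1 were both lowest in the null group but took opposite order between the biotin groups.

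Genes whose log2 CPM followed the called members most closely over the 14 libraries were sought among 8931 genes at a mean of at least 5 CPM. For Per1 they were Il7r, Avpi1 and Nup88, each at Pearson's r of 0.88. For Per3 they were Laptm4b, Mapre2 and Abhd16a, each at 0.93. These values describe libraries that share groups, depth and cell makeup, and within groups of 6 they ran from 0.47 to 0.83 for the genes like Per1 and from 0.01 to 0.90 for those like Per3.

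Of 40 further clock genes listed and present in the table (kinases, ubiquitin ligases, paralogs and outputs), 36 were tested. Rbm3, a cold-induced RNA-binding protein gene, was the only one edgeR called, at 319 ± 48.5 CPM in biotin-positive against 443 ± 47.9 CPM in biotin-negative libraries (a log2 change of -0.47, SE 0.12, adjusted p = 0.0223, n = 6 each). Between the biotin groups 0 of the 36 rose and 1 fell, beside 7.75% of all genes called, with a median log2 change of -0.11. At an unadjusted p under 0.05 there were 6 of the 36, beside 2993 of all 14217 genes. DESeq2 and both limma fits called 2, Rbm3 and Bhlhe40. Over null libraries edgeR called 0 of the 36 in biotin-positive libraries (2.27% of all genes), with 3 at an unadjusted p under 0.05 (1963 of all genes), where DESeq2 and limma voom each called 1 and limma on the normalized signal 0 of 30. It called 0 in biotin-negative libraries (0.317% of all genes), with 3 at an unadjusted p under 0.05 (1311 of all genes) and 0 by each of these tools. The gene called over null was again Bhlhe40, a repressor at E-boxes, named here after its values were seen. It was at 175 ± 49.7 CPM in biotin-positive, 245 ± 32.2 CPM in biotin-negative and 281 ± 50.8 CPM in null libraries. Its edgeR adjusted p was 0.0769 for biotin-positive against biotin-negative and 0.133 for biotin-positive against null libraries. Npas2, a paralog of Clock, was not tested, with at most 0.263 CPM in any library, and neither were Hlf and Usp2, at 1.45 CPM or less.

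**Figure D5:**
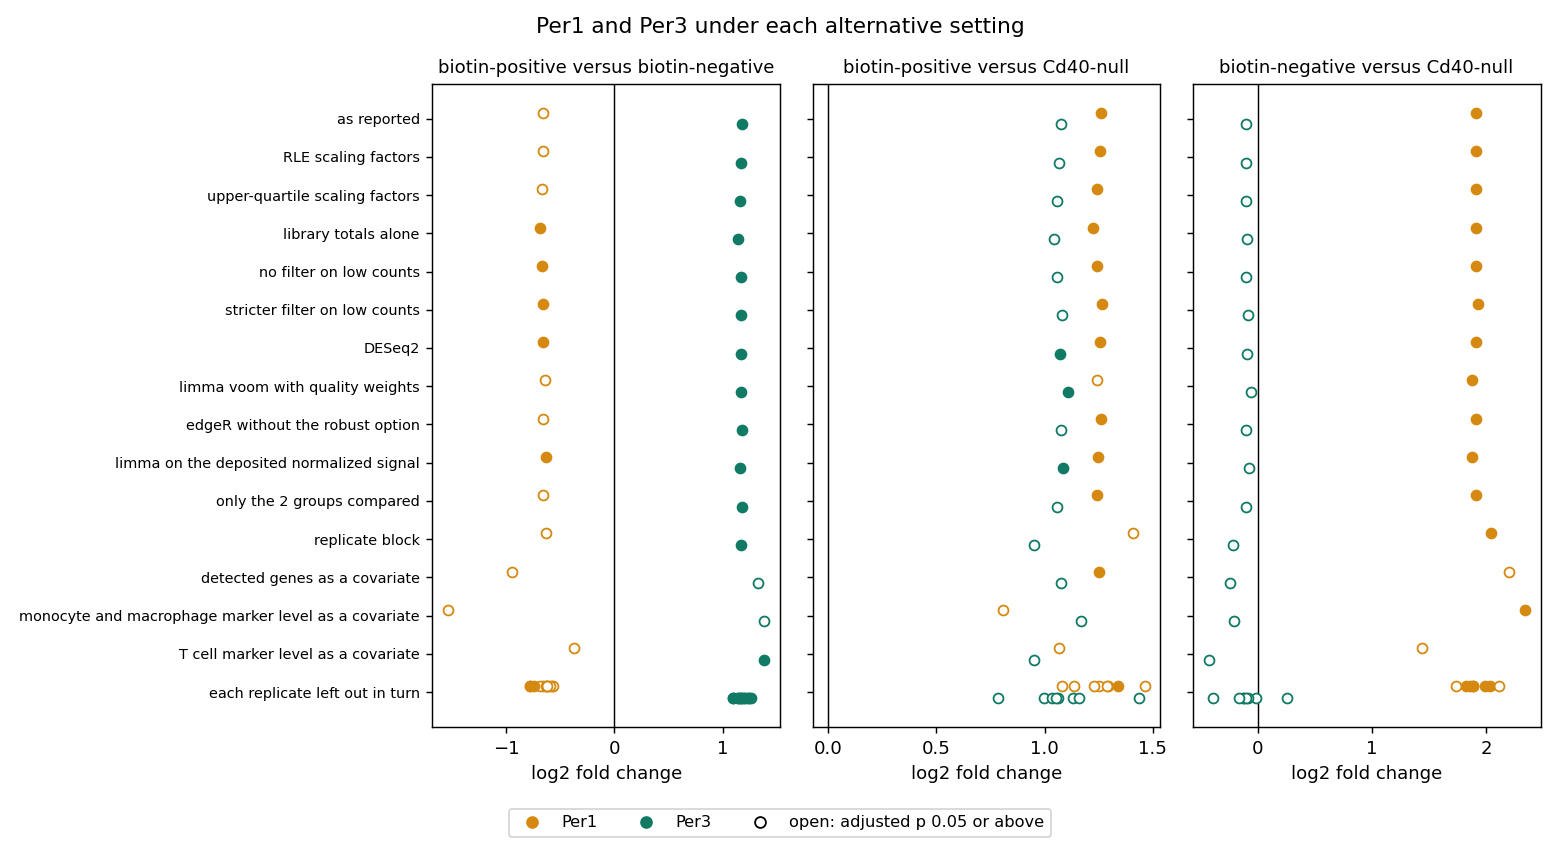
Log2 fold change (horizontal axis) of Per1 (orange) and Per3 (green) as reported and under each alternative (rows) in 3 comparisons; filled points passed an adjusted p of 0.05. Per3 between the biotin groups stays between 1.09 and 1.38, with open points where detected genes or monocyte and macrophage markers enter as a covariate, and Per1 over Cd40-null libraries stays at 0.81 or above with open points in several rows.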

How the data were processed

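Sorted DCs were measured by Smart-seq2 with paired-end reads of 38 bp, per the labels. The authors deposited expected counts per gene, named as RSEM counts in the labels, and a normalized signal for 10321 genes, in which every count was divided by its library's factor and which holds 9 of the 10 members. Tools named in the submitters' processing notes are RSEM 1.2.8, Bowtie2 2.1.0 and DESeq2 1.16.0, beside mm10; the annotation is not given in the sources used here.

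Expected counts, whole in the table, were tested in R 4.3.3 with edgeR 4.0.16: filterByExpr (min.count 10), TMM, all 14 libraries in 1 fit with a group factor, robust glmQLFit and two-sided glmQLFTest, with Benjamini-Hochberg adjustment over 14217 genes. SE is the absolute log2 fold change over the square root of F. Log2 CPM used a prior count of 2. Exon lengths and positions are from GENCODE M21 (GRCm38). The pipeline was tested on simulated counts. Alternatives included other scalings and filters, DESeq2 1.42.0, limma 3.58.1 (voom, and log2 of the signal with a pseudocount of 1), a replicate block, covariates and leaving out each library. Each marker covariate was the scaled mean log2 CPM of the tested genes of a list. No pairing of libraries by replicate number was seen. The genes named were the 10 members, Cd40, Tsc22d3, called genes of the further clock list and the 3 genes most like each called member; exceptions are marked. The members and lists were chosen with earlier results of these data known.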

Additional observations from a re-analysis of the deposited data

How the results depend on the processing

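Fold changes of the members and counts of calls were recomputed under 14 alternatives and with each replicate left out, correlations under 2 other settings and the further clock genes with 3 other tools. The Per1 to Per3 ratio, levels per kb, spread and likeness were not recomputed. Of 697 values for single members, 615 kept direction and side of the threshold, 17 lost and 11 gained a call, and 54 changed sign, none of them called. The cause of these changes was not tested. Nr1d1 has no value on the normalized signal. Few counts limit Nr1d1, Dbp and Cry1, and the 2 null libraries limit every comparison with them.

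Between biotin-positive and biotin-negative libraries 2 members were called under library totals alone, no filter, the stricter filter, DESeq2 and limma on the signal, and 0 with detected genes or the monocyte and macrophage level as covariate. Over null, biotin-positive libraries had 2 calls under DESeq2 and limma on the signal and 0 with the replicate block, the monocyte and macrophage level or the T cell level; biotin-negative libraries had 0 with detected genes or the T cell level. Called genes between the biotin groups were 11 with detected genes, 87 with the monocyte and macrophage level and 537 with the T cell level. For biotin-positive over null they were 802 with DESeq2, 606 with limma voom, 129 with the block and 160 with the monocyte and macrophage level. For biotin-negative over null they were 272 with DESeq2, 83 with limma on the signal, 29 with only the 2 groups compared, 19 with the block, 6 with detected genes and 15 with the T cell level.

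No pairing by replicate number was seen: same-numbered deviations correlated at -0.0226 to 0.0132 over 6 pairs, and differently numbered ones at -0.0496 to 0.0381. Whether same-numbered libraries shared a mouse cannot be told from this. With the replicate block Per3 between the biotin groups was at log2 1.17 (adjusted p = 0.0102), and Per1 over null at 1.41 in biotin-positive (adjusted p = 0.0655) and 2.05 in biotin-negative libraries (adjusted p = 0.0330).

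These log2 values changed sign. Between the biotin groups they were Per2 at -0.72 with detected genes; Cry2 at 0.46, Arntl at -0.49, Clock at -0.0445 and Nr1d2 at -0.70 with the monocyte and macrophage level; and Dbp at -0.24 with the T cell level. For biotin-positive over null, Nr1d1 was at 1.70 with limma voom, 1.50 with the block, 0.004 with detected genes, 0.36 with the monocyte and macrophage level and 0.93 with the T cell level. Cry2 was at 0.0215 with limma voom and 0.20 with the monocyte and macrophage level, where Dbp was at 0.40, and Nr1d2 was at -0.0639 with the block and -0.30 with that level. For biotin-negative over null, Nr1d2 was at -0.0843 with limma voom, -0.13 with limma on the signal, -0.24 with the block, -1.49 with detected genes and -0.14 with the T cell level. Cry1 was at 0.0425 with limma voom, 0.50 with the block and 0.0729 with the monocyte and macrophage level, Cry2 at -0.45 with the block, -0.26 with that level and -0.11 with the T cell level, Arntl at 0.0088 with the monocyte and macrophage level, and Per2 at -0.0162 with the T cell level. Without the 2 libraries farthest from the median (n = 4), r was -0.18 for Per1 with Tsc22d3 in biotin-positive libraries, and in biotin-negative ones 0.0775 for Arntl with Nr1d1, 0.40 for Arntl with Dbp and 0.88 for Nr1d1 with Nr1d2. None of these had an adjusted permutation p under 0.05, but at n = 4 an unadjusted p cannot fall below 0.0417. These tests could thus hardly pass.

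With each replicate left out, members called ran from 1 to 2 between the biotin groups and from 0 to 1 over null in both groups. Called genes over null ran from 78 (without null replicate 1; 95 without 2) to 346 in biotin-positive and from 12 (without null replicate 2; 21 without 1) to 48 in biotin-negative libraries. Log2 values between the biotin groups ran from -0.14 to 0.27 for Arntl, -0.033 to 0.14 for Clock, -0.0901 to 0.29 for Nr1d2 and -0.15 to 1.02 for Dbp. For biotin-positive over null they ran from -0.61 to 0.63 for Cry2, -0.46 to 0.12 for Arntl, -1.03 to 5.52 for Nr1d1, -0.0443 to 0.26 for Nr1d2 and -0.75 to 0.13 for Dbp. For biotin-negative over null they ran from -0.39 to 0.26 for Per3, -0.70 to 0.73 for Cry1, -0.33 to 0.90 for Cry2, -0.54 to 0.0432 for Arntl, -2.46 to 4.08 for Nr1d1 and -0.19 to 0.19 for Nr1d2.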
